A study of Mus musculus with 95 samples.

Results

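The 46 genes described here encode the glutathione transferases and the UDP-glucuronosyl and related UDP-glycosyl transferases of the mouse. They were picked by symbol, from 55401 genes in the count table, and the choice was made with earlier results of these data known. In all, 25 were Gst and Mgst genes (4 Gsta, 1 Gstk, 7 Gstm, 2 Gsto, 3 Gstp, 4 Gstt, 1 Gstz and 3 Mgst) and 21 were Ugt genes (9 Ugt1a, 3 Ugt2a, 7 Ugt2b and 2 Ugt3a). Polyadenylated RNA came from liver, kidney, white adipose tissue (WAT) and cortex of C57BL/6J mice, a widely used inbred strain. One group was held for 3 months in a torpor-like state (TLS), in which mice lower their metabolic rate and body temperature. The labels name its treatment "Stim", read here as TLS from the study's title, and give no further detail of how the state was brought about. TLS mice were 205 days old, control mice of the same 3 months were also 205 days old, and time-0 mice, taken at the start, were 122 days old. Each group held 8 animals, 4 M and 4 F. Most animal codes recur in all 4 tissues, but control animal 9BA4 has no WAT library here and time-0 codes 4 and 5 carry the opposite sex letter in kidney. All groups were anaesthetised with isoflurane and perfused with phosphate-buffered saline before tissues were frozen.

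Glutathione transferases join the tripeptide glutathione to reactive and electrophilic compounds, and several of them also isomerise or reduce lipids and other small molecules. The membrane-bound Mgst enzymes do so in the endoplasmic reticulum and outer mitochondrial membrane. UDP-glucuronosyltransferases of the Ugt1a and Ugt2 families transfer glucuronic acid to bilirubin, steroids, bile acids and drugs, while Ugt3a enzymes use other UDP sugars. Liver and kidney are the main sites of both reactions. In rodents the genes are known to respond to sex hormones, to the pattern of growth hormone release, and to receptors that sense foreign compounds.

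Many of these genes are near copies of each other, which limits how reads can be told apart. The 9 Ugt1a genes lie in 1 cluster on chromosome 1, on the + strand, and each joins a first exon of its own to the same downstream exons. The last 30 private coding bases, in lower case, and the first 30 of the 740 coding bases that all 9 genes share, in capitals, show where this identity starts (GENCODE vM21, GRCm38).
Ugt1a1: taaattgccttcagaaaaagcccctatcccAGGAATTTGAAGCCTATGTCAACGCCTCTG
Ugt1a2: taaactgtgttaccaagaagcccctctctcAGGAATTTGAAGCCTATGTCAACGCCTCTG
Ugt1a6a: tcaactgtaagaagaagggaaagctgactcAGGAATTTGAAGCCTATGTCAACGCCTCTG
Ugt1a7c: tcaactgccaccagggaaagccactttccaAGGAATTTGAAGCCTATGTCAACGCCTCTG
Ugt1a9: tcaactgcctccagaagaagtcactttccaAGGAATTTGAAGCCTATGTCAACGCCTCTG
A read within the capitals fits all 9 genes, so a Ugt1a value rests on its private exon, and how the authors counted reads in shared exons was not stated in the sources used here. Between 385 exonic bases (Ugt1a1) and 2142 (Ugt1a6a) belonged to 1 Ugt1a gene alone.

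Ugt2b37 and Ugt2b38, a close pair described below in liver and kidney, lie on the - strand at chr5:87240493-87254804 and chr5:87409942-87424203. Their coding sequences are 94.1% identical, and Ugt2b38 is 97% identical to Ugt2b5, with an identical run of 443 bases. The 60-base coding window from coding position 480 holds the most differences between Ugt2b37 and Ugt2b38, 12 in all, shown in capitals.
Ugt2b37: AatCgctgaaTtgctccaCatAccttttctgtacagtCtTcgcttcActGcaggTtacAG
Ugt2b38: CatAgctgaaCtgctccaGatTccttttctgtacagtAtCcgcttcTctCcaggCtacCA
Their promoters are close as well. The RefSeq windows of 250 bases before to 50 after the start (GRCm38.p6, - strand), at chr5:87254739-87255038 for Ugt2b37 and chr5:87424154-87424453 for Ugt2b38, are 86.9% identical. Capitals mark the 41 aligned positions that differ or have no partner. The unbroken run of capitals near the start of the Ugt2b38 window has no partner, nor has that near the end of the Ugt2b37 window. Percent identity, also that of the Ugt2b5 promoter below, counts such bases as differences.
Ugt2b37: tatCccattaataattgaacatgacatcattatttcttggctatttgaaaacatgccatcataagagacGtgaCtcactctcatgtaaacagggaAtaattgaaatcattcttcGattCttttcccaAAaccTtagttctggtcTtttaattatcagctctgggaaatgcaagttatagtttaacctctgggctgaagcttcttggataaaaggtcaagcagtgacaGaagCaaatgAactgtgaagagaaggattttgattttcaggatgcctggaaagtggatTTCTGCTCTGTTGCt
Ugt2b38: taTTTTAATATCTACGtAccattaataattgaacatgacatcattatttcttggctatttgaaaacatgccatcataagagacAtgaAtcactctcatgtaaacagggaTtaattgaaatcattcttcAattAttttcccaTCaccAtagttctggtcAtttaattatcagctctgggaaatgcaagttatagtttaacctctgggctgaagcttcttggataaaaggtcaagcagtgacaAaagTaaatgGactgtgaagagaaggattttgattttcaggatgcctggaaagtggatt
The promoter of Ugt2b5 was 84.2% identical to that of Ugt2b38 and 76.2% identical to that of Ugt2b37. Other close pairs by coding sequence were Ugt1a6a and Ugt1a6b (98.4%), Gstp1 and Gstp2 (98.1%), Gsta1 and Gsta2 (97.5%) and Ugt3a1 and Ugt3a2 (93.3%), and their values are uncertain to the extent that reads were shared between them. Gstm2 was at most 85.3% identical to another Gstm gene, and Mgst3 was 42.0% identical to Mgst1.

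The count table held 95 libraries, 24 for each tissue except WAT with 23, where the control group had 7. Total counts ran from 4031533 to 29269511 in liver, 8217875 to 28337864 in kidney, 15881766 to 29089492 in WAT and 14299369 to 22962145 in cortex. Xist and Y-linked genes fitted the M or F label in all 95 libraries, the kidneys of time-0 codes 4 and 5 included. TLS animal A5DA stood apart. Its liver held 7755 CPM of Lcn2, an acute-phase gene whose median was 10.5 CPM in TLS, 2.55 CPM in control and 5.15 CPM in time-0 livers, and its kidney held 257 CPM of Havcr1, a marker of tubular injury with a control median of 1.08 CPM. Several results that include this animal are given with and without it. In time-0 animal 6, summed epididymis markers reached 54801 CPM in WAT, against 2963 CPM in TLS animal 47BE, 396 CPM in TLS animal E46E and at most 61.7 CPM in every other WAT library. Kap, a gene of the kidney's proximal tubule, reached 162 CPM in TLS, 5.21 CPM in control and 55.2 CPM in time-0 WAT. Its medians there were 0.164, 0.138 and 0.484 CPM, and its part in the WAT levels was not tested. CPM here means a count scaled to the TMM-adjusted library size, and TPM also divides by exon length.

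More of these genes had their highest level in liver than in any other tissue (the map of levels by tissue). Of the 42 that reached a mean of 1 TPM somewhere, 24 were highest in liver, 10 in kidney, 7 in WAT and 1, Gstm5, in cortex. The highest tissue was kidney for both Ugt3a genes, and WAT for Gstz1 (504 TPM in WAT and 293 TPM in liver), Gsto1 (91.0 TPM in WAT and 90.0 TPM in liver) and Gsto2. Of the 46 genes, 37 reached a mean of 1 TPM or more in liver, 33 in kidney, 26 in WAT and 18 in cortex, and 17, 15, 10 and 4 of them reached 100 TPM in the same order of tissues. Such a mean can rest on few libraries: Gsta2 in WAT had a mean of 1.96 TPM and a median of 0.125 TPM. They took a median of 1.35% of all counts in liver, with libraries from 0.459% to 2.53%, and 0.452% in kidney, 0.353% in WAT and 0.0707% in cortex. Ugt2a1 and Ugt2a2 were at 0 TPM in every tissue. Only 30 of 2570 exonic bases of Ugt2a1 and 140 of 2541 of Ugt2a2 were shared with no other gene. If reads in shared bases went uncounted, these 0 values do not show that the genes were not expressed. On the TPM scale Gstm1, the mu-class enzyme, led in liver with 3739 ± 2744 TPM (SD, n = 24), ahead of Mgst1 (2854 ± 1429), Gstp1, the pi-class enzyme (1940 ± 1726), Ugt2b5 (1040 ± 629) and Ugt2b36 (662 ± 349). Each of these neighbours differed from the next by less than the larger of their SDs. These means are over both sexes, and the order need not hold within one. Gstp1 had 3404 ± 1191 TPM in M livers and 477 ± 369 TPM in F livers (n = 12 each), where it came after Ugt2b5 and Gsta3 as well. In kidney the order was Gstm1 (1158 ± 489 TPM, n = 24), the alpha-class Gsta2 (668 ± 435), Ugt3a2 (607 ± 211), Ugt2b38 (444 ± 433) and Gsta4 (338 ± 297), the alpha-class enzyme that acts on the lipid peroxidation product 4-hydroxynonenal. This order also pools the sexes. Ugt2b38 had 813 ± 308 TPM in M kidneys, where it followed Gstm1, and 74.4 ± 25.4 TPM in F kidneys, where it was not among the 5 highest. Gsta4 had 94.1 ± 26.1 TPM in M kidneys and 582 ± 232 TPM in F kidneys (n = 12 each), and was among the 5 highest in F kidneys alone. WAT was led by Mgst1 (1253 ± 353 TPM, n = 23), Gstm1 (1090 ± 516), Mgst3 (538 ± 207), Gstz1 (504 ± 131), which is also an enzyme of tyrosine breakdown, and Gstm2 (356 ± 148). Cortex was led by Gstm1 (496 ± 114 TPM, n = 24), Gstm5 (277 ± 49.7), Mgst3 (196 ± 48.5), Gstp1 (189 ± 28.9) and Gsta4 (95.2 ± 15.7), with no Ugt gene above 1 TPM.

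**Figure D1:**
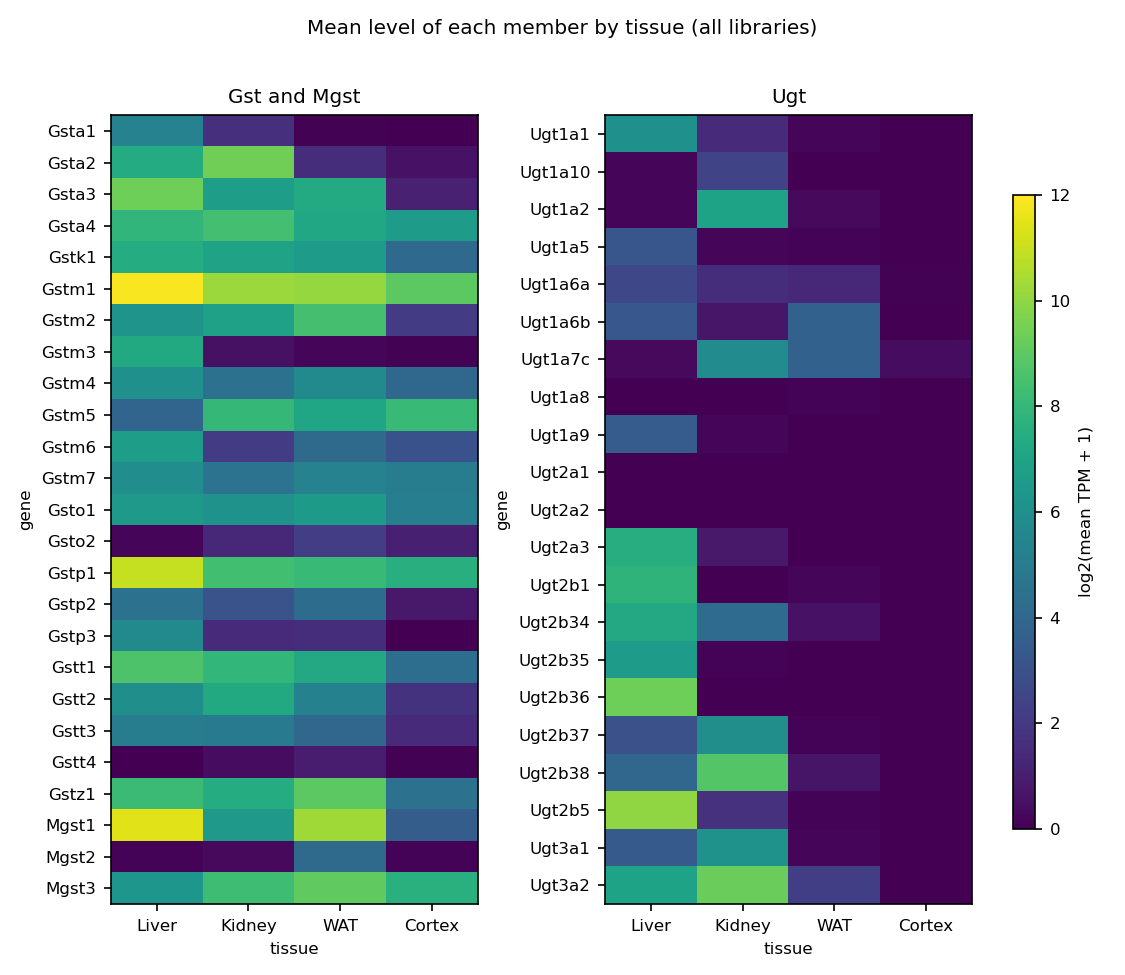
Mean level of each of the 46 genes in each tissue over all libraries (24 for liver, kidney and cortex, 23 for WAT), as log2(mean TPM + 1) in colour, with tissues on the x axis and genes on the y axis. Ugt genes are dark in cortex, and Gstm1, Mgst1 and Gstp1 are brightest in liver.

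Of the close paralogues Ugt2b5 and Ugt2b38, the first had more in liver and the second in kidney. Ugt2b5 averaged 1040 TPM in liver and 2.27 TPM in kidney. Ugt2b38 went the other way, with 14.7 TPM in liver and 444 TPM in kidney. Some other close pairs had the same highest tissue, kidney for Ugt2b37 and Ugt2b38 and for Ugt3a1 and Ugt3a2, and liver for Gstp1 and Gstp2. Others were split. Gsta1 was highest in liver (39.5 TPM) and Gsta2 in kidney (668 TPM), and Ugt1a6a was highest in liver (5.02 TPM) and Ugt1a6b in WAT (12.3 TPM). Ugt1a1, the bilirubin-conjugating enzyme, averaged 63.0 TPM in liver and 1.79 TPM in kidney over its whole exon length, and 364 TPM in liver and 10.3 TPM in kidney over the exon length that no other gene shares. Gstm3 averaged 156 TPM in liver and 0.446 TPM in kidney. In the kidney of time-0 animal 2, Ugt1a2 had 6504 counts and Ugt1a8 had 0. Reads in the exons that these 2 genes share were thus not counted for both. Levels of Ugt1a genes over whole exon length are therefore likely too low, which also affects the counts of genes at 100 TPM. Over unshared length Ugt1a1 in liver and Ugt1a7c in kidney (54.7 and 120 TPM by the 2 lengths) would pass 100 TPM as well. In F kidneys Ugt1a2 would move from rank 8 to rank 3.

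The comparison of TLS with control mice asks what 3 months of the state changed at the same age. In liver, 5 of the 38 genes tested differed. Mgst3, Gstm2 and Gstt1 were lower in TLS than in control livers, and Ugt2b38 and Ugt2b37 were higher. Rose and fell are used below for higher and lower than in the comparison group, not for change within an animal. A gene was called at an edgeR quasi-likelihood p below 0.05 after Benjamini-Hochberg adjustment over all genes tested in the tissue. The share called was 13.2% of these 38, against 1.95% of all 13604 genes tested (0.684% higher and 1.26% lower). In bulk tissue, fewer cells of a type and less RNA per cell cannot be told apart.

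Mgst3 encodes a microsomal enzyme that acts on lipid hydroperoxides and leukotriene A4, at chr1:167371966-167393841 on the - strand. It had 8.84, 11.5, 15.2 and 25.4 CPM in M TLS livers and 26.2, 34.4, 45.3 and 66.5 CPM in F TLS livers, against 62.1, 68.5, 70.7 and 135 CPM in M control livers and 42.2, 58.5, 77.3 and 114 CPM in F control livers. In M the groups did not overlap, and in F they did. All 8 TLS livers lay below the control mean of their sex. The log2 fold change was -1.64 ± 0.33 (SE, n = 8 each, edgeR adjusted p = 0.00906), and -1.53 without A5DA. Time-0 livers overlapped the TLS livers, with 17.4 to 46 CPM in M and 26.9 to 62.3 CPM in F. Mgst3 was called with each of 16 libraries left out in turn, the adjusted p being at most 0.0278.

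Gstm2, a mu-class enzyme at chr3:107981702-107986453 (- strand), had 15.9 to 50.4 CPM in M TLS livers and 20.9 to 39 CPM in F TLS livers, against 38.7 to 102 CPM in M and 50.2 to 97.8 CPM in F control livers. The F groups did not overlap, and 1 M control liver lay within the M TLS range. The log2 fold change of Gstm2 was -1.14 ± 0.27 (SE, adjusted p = 0.0287). Gstt1, the theta-class enzyme that acts on halogenated methanes and other small electrophiles, lies at chr10:75783813-75798584 (- strand). It had 67.2, 125, 185 and 299 CPM in M TLS livers and 150, 280, 296 and 452 CPM in F TLS livers, against 408 to 540 CPM in M and 287 to 492 CPM in F control livers. Here the M groups were separate and the F groups overlapped. Time-0 livers had 219 to 338 CPM of Gstt1 in M and 338 to 442 CPM in F. The log2 fold change of Gstt1 was -0.98 ± 0.25 (adjusted p = 0.0443), and the lowest TLS value, 67.2 CPM, was that of A5DA (-0.83 without it, adjusted p = 0.0440).

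Ugt2b38 had 10.6, 29.6, 46 and 61.3 CPM in M TLS livers and 0.533, 0.584, 0.611 and 4.65 CPM in F TLS livers, against 10.4, 10.8, 11.2 and 12.5 CPM in M control livers and 0, 0, 0 and 0.0572 CPM in F control livers. The control M livers sat within a narrow range that the lowest TLS M liver, A5DA, shared, and the F groups were separate. Time-0 livers lay above the controls here too, with 14.6 to 33.5 CPM in M and 0.132 to 1.67 CPM in F. The fitted log2 fold change over both sexes was 2.39 ± 0.55 (edgeR adjusted p = 0.0236), and 2.59 without A5DA. The F control livers held 1 count in all, so the fitted value depends on the prior count and gives no fold for F. In M alone it was 1.70 (adjusted p = 0.0988). Ugt2b37 had 3.74, 6.58, 11.9 and 18 CPM in M TLS livers and 0.661, 2.13, 4.46 and 23.6 CPM in F TLS livers, against 1.11 to 2.75 CPM in M and 1.54 to 4.39 CPM in F control livers. Its log2 fold change was 1.95 ± 0.49 (adjusted p = 0.0382). The M groups did not overlap and the F groups did, with the highest value in B23B. Time-0 livers had 3.40 to 5.66 CPM in M and 6.97 to 13.6 CPM in F. Their close paralogue Ugt2b5 did not pass the test in the same livers (-0.70 ± 0.29, adjusted p = 0.201), with 359 to 1404 CPM in M and 203 to 1004 CPM in F TLS livers, against 1011 to 2535 CPM in M and 644 to 1298 CPM in F control livers.

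**Figure D2:**
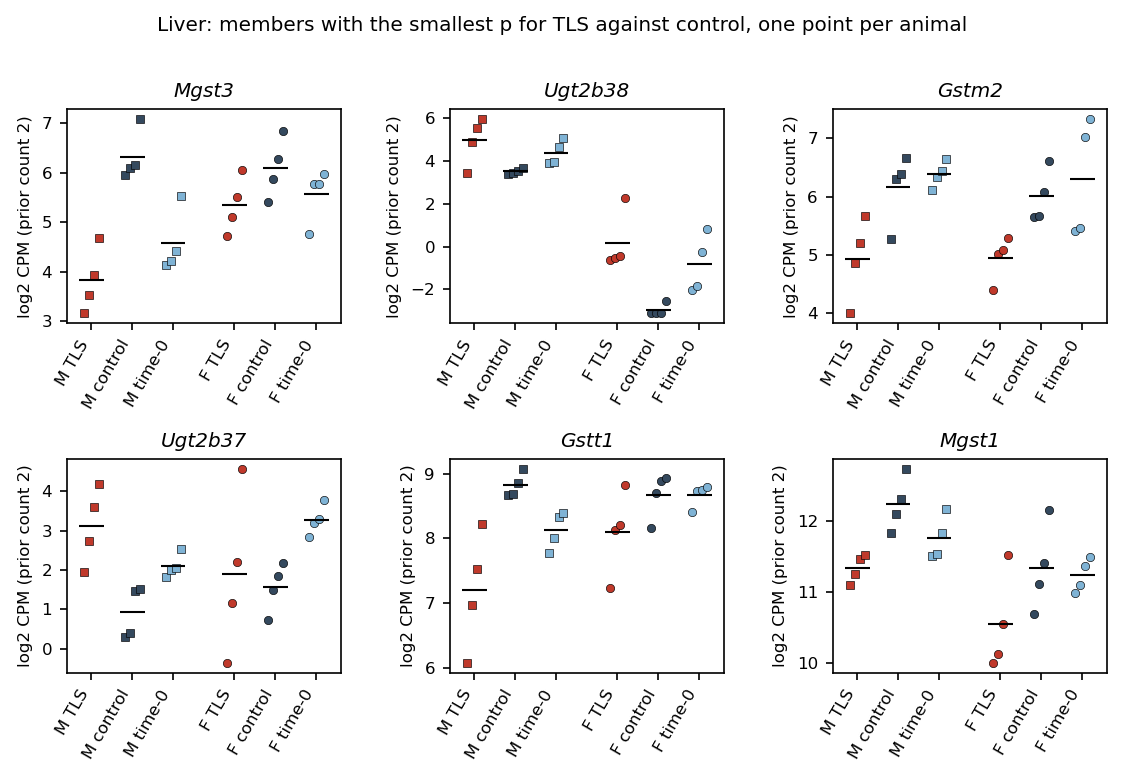
Log2 CPM (prior count 2) of the 6 genes with the smallest p for TLS against control in liver, 1 point per animal (4 per sex and group), with a line at each mean; squares are M and circles F, red is TLS, dark blue control and light blue time-0. Mgst3 and Gstm2 sit lower in TLS than in control livers, and Ugt2b38 and Ugt2b37 sit higher, with Ugt2b38 far lower in F than in M.

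The 4 calls other than Mgst3 were each lost when certain single libraries were left out. The count of 5 calls became 3 without control animals 5A66 or E329 or TLS animal B4B9, 2 without control animals 983B, 9BA4 or A367 or TLS animals 47BE or E46E, 1 without control animal 9916 and 8 without TLS animal B23B. Ugt2b38 was lost without control animal 9916 (adjusted p = 0.0602) or TLS animal 47BE (0.0501). Gstm2 was lost without any 1 of control animals 5A66, 983B, 9916, 9BA4 and A367 or TLS animals B4B9, B51B and E46E, with adjusted p up to 0.0625. Ugt2b37 was lost without control animals 983B, 9916, 9BA4, A123, A367 or E329 or TLS animals 47BE, B23B or E46E (up to 0.0773). Gstt1 was lost without control animals 5A66, 983B, 9916, 9BA4, A367 or E329 or TLS animals 47BE, B03E, B4B9, B51B or E46E (up to 0.104). Their log2 fold changes kept their sign in all of these, from 1.91 to 2.59 for Ugt2b38, -1.27 to -1.04 for Gstm2, 1.57 to 2.17 for Ugt2b37 and -1.14 to -0.83 for Gstt1.

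Most other liver glutathione transferases had negative values that did not pass the test. Of the 22 Gst and Mgst genes tested, 18 had a negative log2 fold change, with a median of -0.651, against 0.0772 over all genes, and 3 passed. With sex crossed with treatment, their median was -0.902 in M and -0.187 in F. A5DA is among the M TLS livers, and no median without it is given here. Mgst1, the abundant microsomal enzyme at chr6:138140316-138156755 (+ strand), had 2179 to 2942 CPM in M and 1019 to 2950 CPM in F TLS livers, against 3639 to 6831 CPM in M and 1654 to 4576 CPM in F control livers (-0.85 ± 0.23, adjusted p = 0.0544). Mgst1 passed without control animal A123 (0.0330) or TLS animal B23B (0.00742). Gstt2 had a value of -1.08 ± 0.31 (0.0678), and Gsta1, an alpha-class enzyme, one of -3.74 ± 1.10 (0.0810). Gsta1 ranged from 0 to 2.59 CPM in M TLS livers and 14.0 to 184 CPM in M control livers. The F groups overlapped, with 0.146 to 8.53 CPM in TLS and 2.14 to 11.8 CPM in control livers. The value of 0 was that of A5DA. Gstp1 and Gstp3 were near 0 (0.16 ± 0.33 and 0.02 ± 0.31). Of the 16 Ugt genes tested, 9 had a negative value and the median was -0.0916. Ugt1a1 ran from 5.34 to 173 CPM among M TLS livers and from 5.02 to 45.5 CPM among M control livers, and its log2 fold change was 0.32 ± 0.73. Hepatocyte markers were also lower in the median TLS liver: 12 of them summed to 61082 to 147415 CPM (median 90661) in TLS livers, against 91046 to 166237 CPM (median 119274) in control livers, and Alb alone ran from 11175 to 69281 CPM in TLS livers, against 56041 to 102358 CPM in control livers. Their part in the results was not tested. Kap and Slc34a1, defining genes of the proximal tubule, were at or below 0.236 CPM in every TLS and control liver.

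Whether TLS changed M and F livers by unequal amounts was tested directly, and the test passed for 0 of 38 liver genes by edgeR, against 0.00735% of all genes. At an unadjusted p below 0.05 there were 6, and DESeq2 called 1, Gstt2. For Gstt2 the M livers had 22.2 to 71.4 CPM after TLS against 152 to 259 CPM in controls, and the F livers had 102 to 221 CPM against 114 to 219 CPM, a difference of effects of -1.98 ± 0.47 (edgeR adjusted p = 0.464). Mgst3 had a value of -2.46 ± 0.41 in M and -0.76 ± 0.39 in F (difference -1.70 ± 0.56, adjusted p = 0.725).

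In kidney, 0 of 34 genes passed by edgeR for TLS against control, against 0.231% of all 16005 genes tested, with 3 at an unadjusted p below 0.05, 0 by DESeq2, 1 by limma voom with quality weights and a median of -0.06 (the plot of fold changes in liver and kidney). Gsto1, the omega-class enzyme with thioltransferase activity, had 37.9 to 83.5 CPM in M and 61.4 to 97.5 CPM in F TLS kidneys, against 31.6 to 44.0 CPM in M and 49.9 to 61.8 CPM in F control kidneys (0.45 ± 0.15, adjusted p = 0.313). Each of the 8 TLS kidneys was above the mean of control kidneys of its sex, but the ranges overlapped, and the value was 0.30 without A5DA, the highest M kidney. Ugt2b38 had 361, 1040, 1111 and 1122 CPM in M and 38.9 to 64.8 CPM in F TLS kidneys, against 624 to 796 CPM in M and 30.5 to 41.1 CPM in F control kidneys (0.48 ± 0.18, adjusted p = 0.407). The single low M kidney, 361 CPM, was that of A5DA. Without it Ugt2b38 had a value of 0.60 (adjusted p = 0.0603). It was the 1 gene that passed by limma voom (0.65, adjusted p = 0.00216) and with the share of nuclear RNA as a covariate (0.66, adjusted p = 0.00555). Ugt2b37 had 63.8 to 195 CPM in M and 1.00 to 1.54 CPM in F TLS kidneys, against 102 to 156 CPM in M and 0.239 to 0.514 CPM in F control kidneys (0.54 ± 0.23, adjusted p = 0.520). Ugt1a10 (0.96 ± 0.51), Gstm1 (-0.42 ± 0.25) and Gstm6 (-0.49 ± 0.31) followed by p and did not pass. Mgst3 had 98.8 to 241 CPM in M and 120 to 167 CPM in F TLS kidneys, against 84.9 to 249 CPM in M and 113 to 154 CPM in F control kidneys (0.18 ± 0.22). A list of 14 proximal tubule markers, none of them at 0, summed to 33520 to 108025 CPM in M and 11450 to 21221 CPM in F TLS kidneys, against 54776 to 87517 CPM in M and 21589 to 32072 CPM in F control kidneys. The F groups did not overlap on this sum, and its part in the results was not tested. At these depths and spreads, a simulated 2-fold change was called for 81.5% of 200 changed genes in kidney (16005 genes tested) and 49.5% in liver (13604). The changed genes had a mean of at least 1 CPM and no gene had a sex difference, so these shares do not measure the power for the genes named here.

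**Figure D3:**
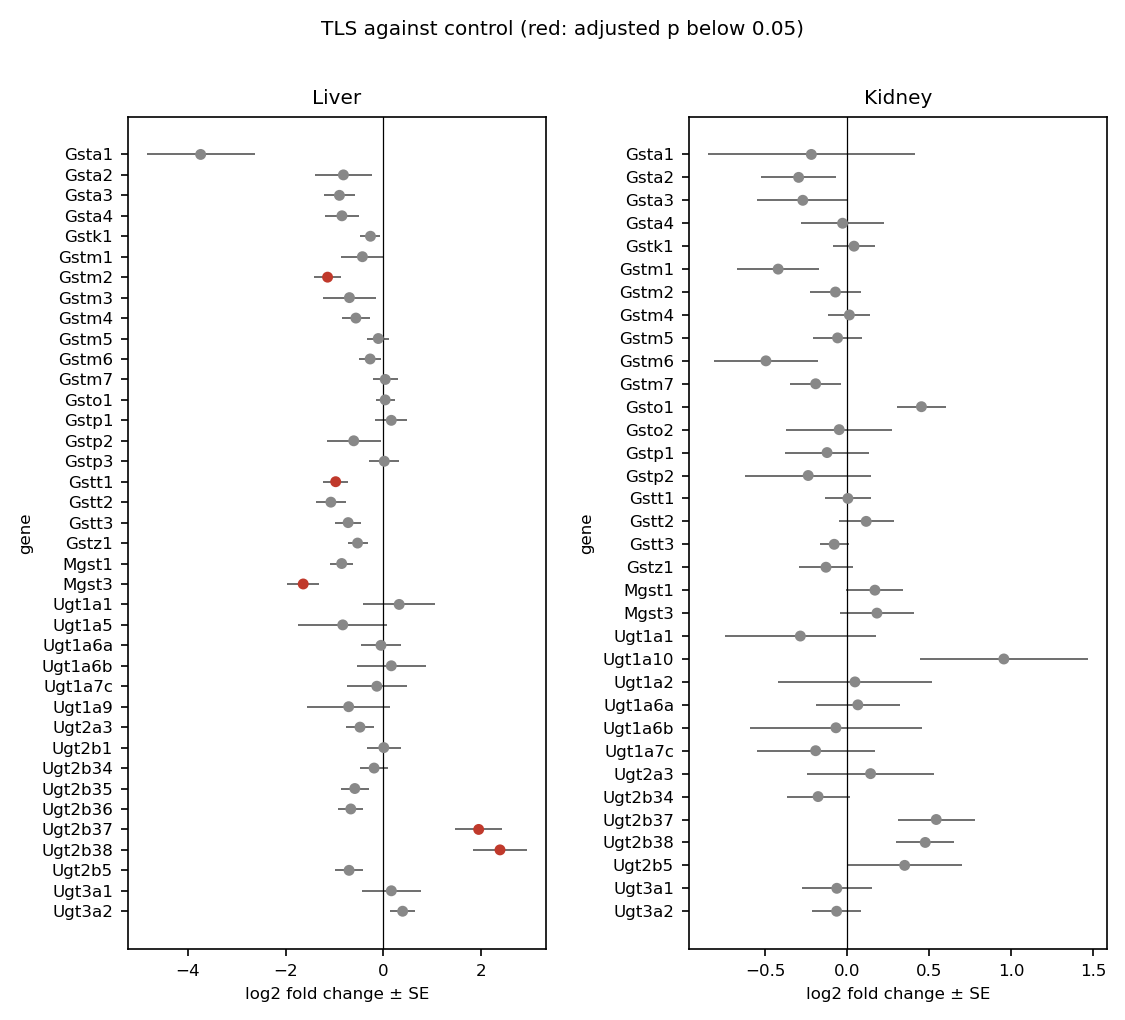
Log2 fold change (edgeR) of TLS against control for each gene tested in liver (38) and kidney (34), with horizontal bars of 1 SE; n = 8 animals in each group, red points have an adjusted p below 0.05, and the x axes differ in scale. The 5 red points are in liver, 3 below 0 and 2 above, and kidney has none.

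The TLS effect itself differed between liver and kidney for 3 of the 46 genes, in a joint edgeR fit in which 2.25% of all 20888 genes passed. How many of the 46 were tested in this fit is not given here, so their share among tested genes is not stated. For Mgst3 the liver effect minus the kidney effect was -1.83 ± 0.38 on the log2 scale (adjusted p = 0.00494), for Gstt2 it was -1.20 ± 0.31 (0.0220) and for Gstt1 it was -0.98 ± 0.28 (0.0420). All 3 differences were negative, against 1.15% of all genes. Gstt1 had 127 to 209 CPM in TLS kidneys, against 105 to 255 CPM in control kidneys, and Gstt2 had 173 to 474 CPM against 163 to 443 CPM, so that neither group stood apart from the other in kidney. With the animal as a replicate block these 3 remained and Gsta1 was added (-3.37 ± 0.76, adjusted p = 0.0183), and the same 4 passed when the kidneys of time-0 codes 4 and 5 were not paired with the livers of those codes. Without A5DA they remained too, and Gstm2 (-1.20 ± 0.32, adjusted p = 0.0195) and Ugt2b38 (1.91 ± 0.60, adjusted p = 0.0485) were added.

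The comparisons with time-0 mice ask what the 3 months changed in TLS and in control animals. They share animals with the comparison above, so their values are set side by side. In liver, Gstm2 had a log2 fold change of -1.47 ± 0.27 in TLS against time-0 livers (edgeR adjusted p = 0.00508), and Gstm4, another mu-class gene, one of -1.25 ± 0.29 (0.0246), against 1.34% of all genes called and 0.75% called lower. Gstm4 had 23 to 57.7 CPM in M and 15.6 to 39.3 CPM in F TLS livers, against 58.6 to 104 CPM in M and 28.5 to 122 CPM in F time-0 livers, and all 8 TLS livers lay below the time-0 mean of their sex. Neither passed in M alone or F alone. Control against time-0 livers gave 0 calls by edgeR (0.529% of all genes), with 7 at an unadjusted p below 0.05, and DESeq2 called 1, Mgst3, whose edgeR value was 1.20 ± 0.32 (adjusted p = 0.0888). In kidney, TLS against time-0 and control against time-0 gave 0 calls each by edgeR (0.681% and 0.312% of all genes), with 6 and 5 at an unadjusted p below 0.05. DESeq2 called 1 and 0 in the same order, and edgeR called 1 for TLS against time-0 without A5DA.

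In kidney most of these genes differed between the sexes. Of the 34 genes tested, 26 differed between M and F, 16 higher in M and 10 lower, which was 76.5% against 46.8% of all genes (24.6% higher and 22.2% lower). Among Ugt genes 12 of 13 passed, and among Gst and Mgst genes 14 of 21. Ugt2b37 had 48.2 to 195 CPM (median 106) in 12 M kidneys and 0.239 to 1.54 CPM (median 0.717) in 12 F kidneys, a log2 difference of 7.16 ± 0.23 (edgeR adjusted p = 2.89e-18). Ugt2b38 had 361 to 1122 CPM (median 747) in M and 30.5 to 67.5 CPM (median 53.5) in F kidneys (4.01 ± 0.16, adjusted p = 3.23e-16). M and F were separate for both genes in every group, also in the kidney of A5DA.

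Ugt1a2, at chr1:88200601-88218997 (+ strand), went the other way by the widest margin. It had 0 to 1.42 CPM (median 0.0910) in M kidneys and 64 to 351 CPM (median 154) in F kidneys, a log2 difference of -9.14 ± 0.46 (adjusted p = 1.17e-13). Within F it ran from 64 to 148 CPM in TLS, 124 to 220 CPM in control and 220 to 351 CPM in time-0 kidneys, and among M the highest were TLS animals 47BE (27 counts) and E46E (21 counts). Ugt1a1 was lower in M as well (-3.39 ± 0.39, adjusted p = 1.25e-07), as were Ugt2b34 (-1.85 ± 0.16, 1.16e-09) and Gsta4, at chr9:78182774-78209349 (+ strand), with 29.1 to 94.7 CPM in M and 153 to 563 CPM in F kidneys (-2.08 ± 0.22, 2.83e-08). Gstp2 (2.30 ± 0.32, adjusted p = 3.08e-06) and Ugt2b5 (2.08 ± 0.30, 3.60e-06) were higher in M. The Ugt1a cluster was thus split, with Ugt1a1, Ugt1a2, Ugt1a6a and Ugt1a10 lower in M and Ugt1a6b and Ugt1a7c higher. Ugt1a6a and Ugt1a6b, at 98.4% coding identity, had opposite signs (-1.21 ± 0.21 and 2.17 ± 0.43). The 8 genes that did not pass included Mgst1 (-0.00 ± 0.14), Mgst3 (0.18 ± 0.18) and Gstm1 (0.36 ± 0.20). The sex difference of the TLS effect passed for 0 of 34 kidney genes by edgeR (0% of all genes), with 2 at an unadjusted p below 0.05 and 0 by DESeq2.

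**Figure D4:**
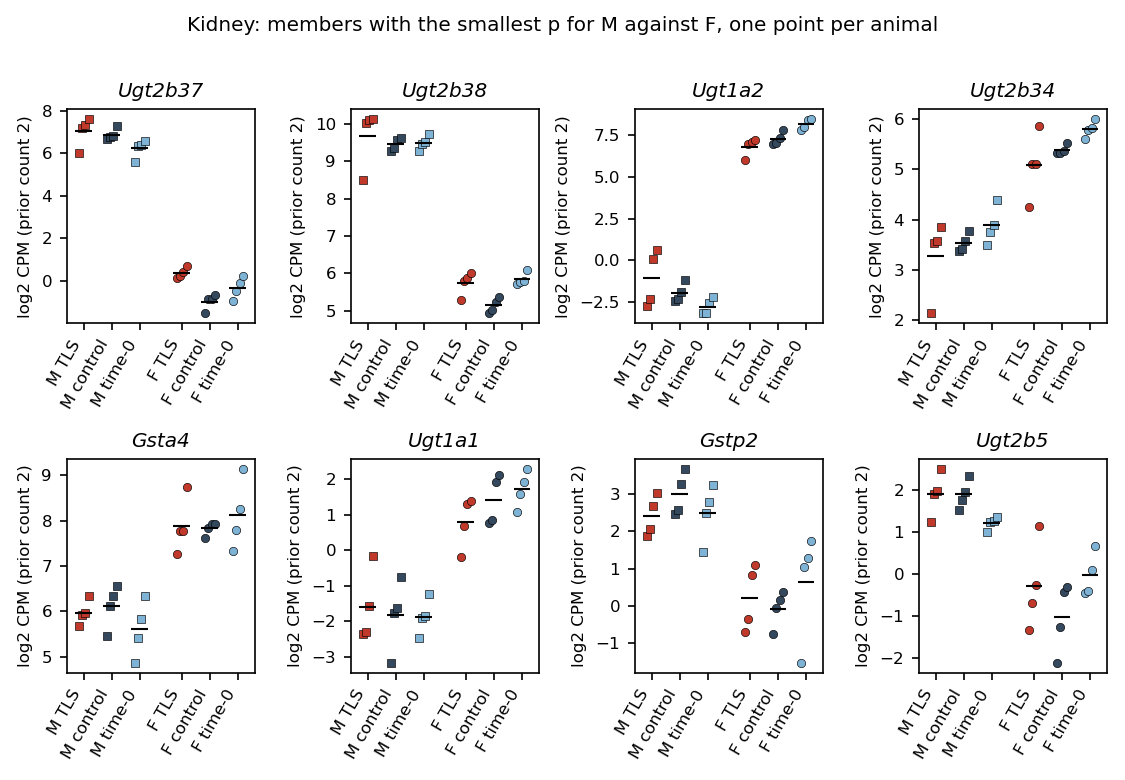
Log2 CPM (prior count 2) of the 8 genes with the smallest p for M against F in kidney, 1 point per animal (4 per sex and group), with a line at each mean; squares are M and circles F, red is TLS, dark blue control and light blue time-0. Ugt2b37, Ugt2b38, Gstp2 and Ugt2b5 are higher in M, and Ugt1a2, Ugt2b34, Gsta4 and Ugt1a1 are higher in F, in each of the 3 groups.

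In liver 7 of 38 genes differed by sex (18.4%, against 6.4% of all genes, 2.94% higher and 3.46% lower), 6 of them higher in M and 1 lower. Ugt2b38 was higher in M there too, with 10.4 to 61.3 CPM (median 15) in M and 0 to 4.65 CPM (median 0.348) in F livers (5.13 ± 0.48, edgeR adjusted p = 1.22e-08). Gstp1 had 973 to 3538 CPM in M and 161 to 982 CPM in F livers (2.65 ± 0.29, adjusted p = 1.03e-07), and its near copy Gstp2 differed by 3.58 ± 0.48 (6.82e-06). Ugt2b1 (1.5 ± 0.29), Ugt2b35 (0.88 ± 0.24) and Mgst1 (0.68 ± 0.19) were also higher in M, and Gstt3 was lower (-0.84 ± 0.22). Gstt3, Mgst1 and Ugt2b35 did not pass in TLS, control or time-0 livers alone. Ugt2b1 was at 20.8 CPM in the liver of A5DA, against 414 to 677 CPM in the other M TLS livers. Without A5DA the 7 genes passed in the same direction. Ugt2b37, at 1.11 to 18 CPM in M and 0.661 to 23.6 CPM in F livers, overlapped between the sexes in liver.

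Genes of 9 surrounding pathway lists were tested in the same fits. For TLS against control in liver, 1.95% of all genes were called (0.684% higher and 1.26% lower), and most lists had 0 or 1 call, too few to set apart from that share. Of 14 glutathione synthesis and breakdown genes tested in liver, 1 fell, Nat8, the acetyltransferase that finishes mercapturic acids (-1.47 ± 0.37, edgeR adjusted p = 0.0405). Of 21 redox enzymes 1 rose, the secreted glutathione peroxidase Gpx3 (1.93 ± 0.50, adjusted p = 0.0453). Of 26 NRF2 response genes, 1 fell, Tkt (-0.70 ± 0.19, 0.0479), and of 13 genes of UDP-glucuronic acid supply and use, 1 fell, Slc35d2, a nucleotide sugar transporter (-0.83 ± 0.17, 0.0105). Among 15 targets of the receptors AHR, CAR and PXR, Aldh1a7 fell (-1.39 ± 0.25, 0.00436), and the 24 xenobiotic receptors and regulators, the 15 conjugate transporters and the 17 male-biased liver genes gave 0 calls by edgeR, with 4, 2 and 7 at an unadjusted p below 0.05. Of 20 female-biased liver genes 3 fell, Cyp3a44 (-3.55 ± 0.77, 0.0183), Cyp3a41a (-3.43 ± 0.81, 0.0304) and Cyp2a22 (-1.24 ± 0.33, 0.0467), with a median of -0.81. List medians otherwise ran from -0.224 to 0.141, against 0.0772 over all genes. In kidney, all 9 lists had 0 calls for TLS against control by edgeR, with 0 to 5 genes a list at an unadjusted p below 0.05. For M against F, where 24.6% of all genes were higher and 22.2% lower, 17 of 22 redox enzymes were higher, among them Gpx1 (1.36 ± 0.19), and 1 was lower, 9 of 17 synthesis genes were higher and 1 lower, and 5 of 16 conjugate transporters were higher, close to the share of all genes, and 8 lower. The organic anion carrier Slco1a1 was higher in M (13.34 ± 0.52) and the glucuronide exporter Abcc3 was lower (-4.71 ± 0.30).

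WAT gave 0 calls among 25 genes for TLS against control by edgeR (0.00596% of all genes), for control against time-0 (0.161%), for TLS against time-0 (0.226%) and for the sex difference of the TLS effect (0%), with 3, 3, 5 and 8 at an unadjusted p below 0.05. DESeq2 called 0 in each, and limma voom with quality weights called 0 for TLS against control. The smallest p for TLS against control was that of Ugt1a6b, with 1.49 to 10.6 CPM in M and 5.01 to 10.2 CPM in F TLS fat, against 11.4 to 16.1 CPM in M and 8.64 to 15.5 CPM in F control fat (-0.96 ± 0.32, adjusted p = 0.270). Gstp2 (-0.58 ± 0.20, 0.280) and Gstm1 (-0.85 ± 0.30, 0.305) came next. Between the sexes 3 genes passed, 2 higher in M and 1 lower (11.8% of all genes, 4.93% higher and 6.9% lower), and 7 passed without A5DA. With all animals, Gstm7 (2.74 ± 0.62, adjusted p = 0.00416) and Gstm6 (1.55 ± 0.46, 0.0289) were higher in M and Mgst2 was lower (-0.82 ± 0.21, 0.0122). Time-0 animal 6, which carried the epididymis markers, had 255 CPM of Gstm7 and 135 CPM of Gstm6, against 7.30 to 7.71 CPM and 6.07 to 8.89 CPM in the other M time-0 fat. TLS animal 47BE, next in those markers, had 94.4 CPM of Gstm7. Without these and E46E, Gstm7 was at 1.12 ± 0.26 (adjusted p = 0.00687), Mgst2 at -0.76 ± 0.22 (0.0324) and Gstm6 at 0.47 ± 0.21 (0.172).

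Cortex, with 19 genes tested, showed 0 calls by edgeR for TLS against control (5.41% of all genes), with 4 at an unadjusted p below 0.05. Gsta3 (-0.72 ± 0.23, adjusted p = 0.0551) and Gstk1, the kappa-class enzyme of mitochondria and peroxisomes (0.39 ± 0.12, 0.0552), were close to the threshold. DESeq2 and limma voom with quality weights called both. In edgeR both passed without control animals A123 or D215, Gsta3 passed without TLS animal B4B9, and Gstk1 passed without TLS animals 47BE or B23B, with adjusted p from 0.0158 to 0.0452. Gsta3 had 0.843 to 1.37 CPM in M and 1.04 to 1.55 CPM in F TLS cortex, against 1.87 to 2.78 CPM in M and 0.781 to 2.40 CPM in F control cortex. With nuclear RNA share as a covariate its value was -0.24 ± 0.28. Ugt1a7c (0.90 ± 0.36, adjusted p = 0.126), at or below 1.01 CPM in TLS cortex, came next.

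Against time-0 mice, many of these genes were higher in cortex, in TLS and in control mice. In TLS cortex 10 of 19 were higher and 1 was lower (57.9%, against 35.7% of all genes, 18.1% higher and 17.6% lower). In control cortex 11 of 19 were higher and 0 lower (also 57.9%, against 21.2% of all genes, 10.8% higher and 10.5% lower). Mgst3 had 76.9 to 98.9 CPM in M and 70.1 to 96.5 CPM in F TLS cortex, 72.5 to 81.7 CPM in M and 71.2 to 86.7 CPM in F control cortex, and 47.1 to 62.3 CPM in M and 35.6 to 51.6 CPM in F time-0 cortex. No TLS or control cortex overlapped with time-0. Mgst3 rose by 0.79 ± 0.09 in TLS (edgeR adjusted p = 3.00e-07) and by 0.62 ± 0.09 in control cortex (3.32e-05). Gstm5, the mu-class gene most expressed in brain by these data after Gstm1, rose by 0.53 ± 0.08 (7.42e-06) in TLS and 0.46 ± 0.08 (0.000211) in control cortex, also with no overlap. Gstt3 rose by 1.59 ± 0.23 in TLS and 1.22 ± 0.23 in control cortex, at 1.89 to 4.01 CPM in TLS, 1.26 to 3.56 CPM in control and 0.469 to 2.05 CPM in time-0 cortex. In TLS cortex Gstk1 rose by 0.76 ± 0.12, Mgst1 by 1.05 ± 0.19, Gstt1 by 0.62 ± 0.12 and Gsta4 by 0.36 ± 0.09. In control cortex Gstk1 rose by 0.37 ± 0.13, Mgst1 by 0.60 ± 0.19, Gstt1 by 0.53 ± 0.12 and Gsta4 by 0.42 ± 0.09. In M alone 7 genes passed in TLS and 4 in control cortex against time-0. Ugt1a7c rose in TLS (1.07 ± 0.36, adjusted p = 0.0210) and Gsta3 fell there (-0.60 ± 0.22, 0.0370). The 2 comparisons share the time-0 animals.

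**Figure D5:**
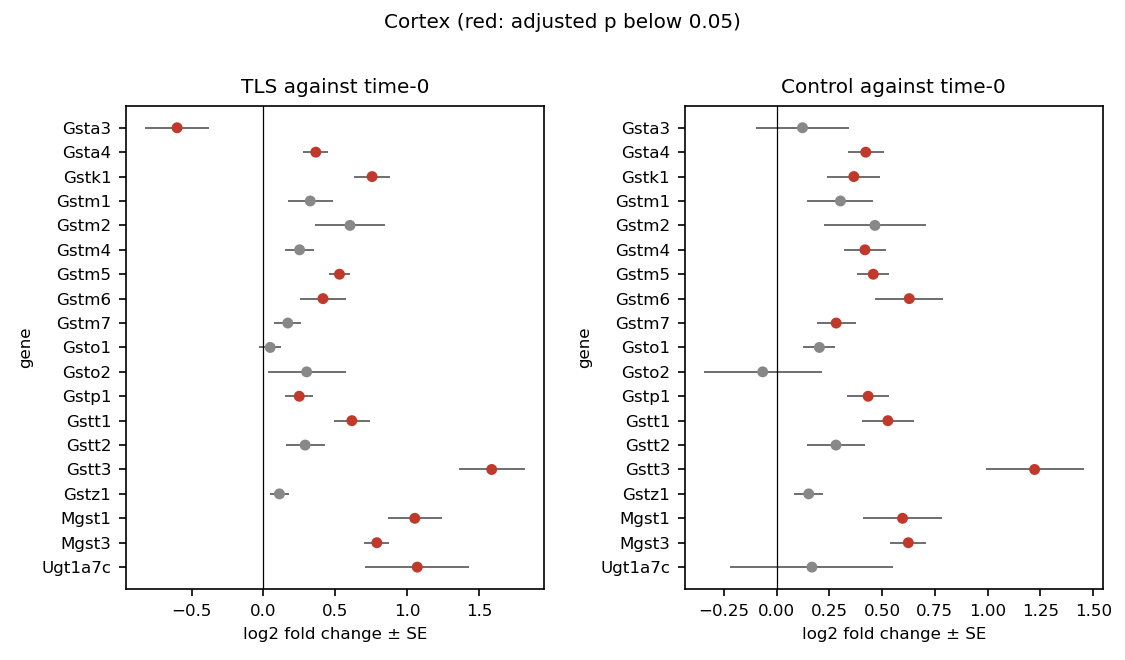
Log2 fold change (edgeR) of TLS against time-0 and of control against time-0 in cortex for the 19 genes tested, with horizontal bars of 1 SE; n = 8 animals in each group, red points have an adjusted p below 0.05, and the x axes differ in scale. Red points lie right of 0 in both panels except Gsta3 in TLS against time-0.

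The share of nuclear RNA, the counts of Malat1, Neat1 and Meg3 as a percent of all counts, also differed between the cortex groups. It averaged 0.268% in M and 0.273% in F TLS cortex, 0.613% in M and 0.311% in F control cortex, and 0.513% in M and 0.568% in F time-0 cortex (n = 4 each). With this share as a covariate, 3 genes passed for TLS against time-0, Gstm5, Gstt3 and Mgst3, and 8 for control against time-0. Astrocyte markers, 7 genes, summed to 4190 to 5141 CPM in TLS, 3334 to 4748 CPM in control and 3124 to 3816 CPM in time-0 cortex, and 7 oligodendrocyte markers to 4832 to 9056, 4079 to 6032 and 3591 to 4514 CPM in the same order. Their part in the results was not tested. Gstm5 shares exonic bases with 4933431E20Rik and Gstt3 with Gm20441, and without the strand setting of the counting, reads in the shared bases cannot be told apart. Of their exonic bases, 1100 of 1278 for Gstm5 and 3318 of 3842 for Gstt3 were not shared. Of 21 glutathione redox enzymes, 13 rose and 0 fell in TLS and likewise in control cortex against time-0, among them Gpx4, which reduces lipid hydroperoxides in membranes (0.78 ± 0.09 in TLS and 0.60 ± 0.09 in control cortex), and Prdx1 (0.64 ± 0.08 in TLS and 0.47 ± 0.08 in control cortex). The shares of all genes were 18.1% higher and 17.6% lower in TLS, and 10.8% higher and 10.5% lower in control cortex. Of 26 NRF2 response genes, 10 rose and 1 fell in TLS and 5 rose and 0 fell in control cortex. In either direction 11 and 5 were called, near the 35.7% and 21.2% of all genes called. By direction nearly all of these calls were upward, whereas the shares of all genes were nearly even. Nfe2l2, which encodes NRF2 itself, rose in TLS against control cortex (0.39 ± 0.09, adjusted p = 0.0192). M against F and the sex difference of the TLS effect gave 0 calls each in cortex by edgeR (0.126% and 5.08% of all genes), with 2 and 1 at an unadjusted p below 0.05 and 0 by DESeq2.

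A set of 5 short motifs was searched on both strands of the 51 RefSeq promoters of the 42 genes that had one, each 300 bases long, and of all 32851 promoters of that length. The antioxidant response element core TGACNNNGC was in 7.84% of the members' promoters (Gsta3, Gstm5, Gstm7 and Mgst1) and 12.4% of all. The xenobiotic response element core GCGTG was in 19.6% and 32.4%, the STAT5 site TTCNNNGAA in 9.8% and 8.3%, the HNF1 half-site GTTAAT in 13.7% and 7.1%, and the E-box CACGTG in 0% and 7.15%. The Ugt2b37 and Ugt2b38 windows printed above held no match to any of the 5 motifs.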

How the data were processed

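RNA was sequenced as NEBNext Ultra II polyA libraries on a NovaSeq, per the labels. The submitters' processing notes name STAR 2.7.10, DESeq2, DESeq and the mm10 and GRCm38 builds. The authors deposited whole-number raw read counts per gene from featureCounts, per the file header, which adds the word "corrected". Its meaning, like the strand setting, was not stated in the sources used here. Genes were kept per tissue by filterByExpr (minimum count 10), scaled by TMM and tested with edgeR 4.0.16 (robust quasi-likelihood, group plus sex, R 4.3.3), so every adjusted p without another tool's name is edgeR's, Benjamini-Hochberg adjusted over all genes tested. Sex differences of the TLS effect came from a fit of group crossed with sex, and the liver against kidney difference from a joint fit. SE is the log2 fold change divided by the square root of F. TPM used merged GENCODE vM21 exons. DESeq2 1.42.0 and limma 3.58.1 were alternatives. Scripts were tested on simulated data. The labels name 1 batch for all libraries. P-values within a tissue rest on the spread between animals. In the joint fit, libraries of the same animal were treated as independent, except where a replicate block was fitted. The genes and lists were chosen with earlier results of these data known. For TLS against control, genes named were those called plus the smallest p up to 6 in liver and kidney and 3 in WAT and cortex. For other comparisons they were at most 8 called genes with the smallest p, for levels the 5 highest, and for pathway lists up to 3 called genes. Others named for contrast, such as paralogues and genes called elsewhere, were chosen after their values were seen. Same-animal deviations of liver and kidney had a mean correlation of 0.0462 over 22 pairs (-0.202 to 0.508), against -0.0121 with other animals. The pairing comes from the animal codes, and time-0 codes 4 and 5, with opposite sex letters in liver and kidney, were left out of it.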

Additional observations from a re-analysis of the deposited data

Results flagged for a closer look

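In 7 of 63 groups of 4 to 10 libraries checked, 1 library lay far from the others, where chance gives about 1 in 20. The groups share libraries, so the flags are not independent, and no excess over that rate was tested. Gstt1 was at 287 CPM in the liver of control animal A123, below the other control livers. In WAT of TLS animal A5DA, Ugt1a6b was at 1.49 CPM and Gstm1 at 100 CPM, both the lowest of the TLS group. In WAT of control animal A367, Gstm7 was at 27.4 CPM and Gstm6 at 17.7 CPM, and in WAT of time-0 animal 6, whose epididymis markers summed to 54801 CPM, they were at 255 and 135 CPM.

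The TLS effect differed between liver and kidney for 3 genes by a test of that difference. The liver effect minus the kidney effect was -1.83 on the log2 scale for Mgst3, -1.2 for Gstt2 and -0.977 for Gstt1.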

How the results depend on the processing

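For TLS against control in liver, 5 genes were called as reported, 8 by DESeq2, 12 by limma voom with quality weights, 3 with no filter on low counts, 2 without the sex term, 2 when only these groups were fitted and 0 in F alone. Leaving out 1 library gave 1 to 8 calls. Cortex went from 0 calls to 2 by DESeq2, by limma, in M alone and with sex crossed with treatment, and to 1 without the sex term or with a minimum of 1 CPM, and leaving out 1 library gave 0 to 2. Kidney went from 0 to 1 by limma and with the nuclear RNA share as covariate. For TLS against time-0, liver had 0 calls in M alone and 0 in F alone (2 as reported), kidney 1 by DESeq2, in F alone, with nuclear share and without A5DA (0 as reported), and cortex 7 in M alone and 3 with nuclear share (11 as reported). For control against time-0, liver had 1 by DESeq2 and 2 with only these groups, kidney 3 in F alone, and cortex 4 in M alone (0, 0 and 11 as reported). For M against F, TLS and time-0 animals alone gave 2 and 4 calls in liver (7 as reported), 11 and 13 in kidney (26) and 0 and 0 in WAT (3), where DESeq2 gave 5 and leaving out A5DA 7. DESeq2 called 1 sex difference of the TLS effect in liver (0 as reported). The liver against kidney difference had 5 calls by limma voom, 5 without A5DA and 4 with the replicate block, also with time-0 kidneys 4 and 5 unpaired, an alternative chosen after seeing the data (3 as reported), and the block changed no other call. Of the alternatives for single genes, 740 kept their direction and side of the threshold, 84 lost the call and 23 gained it, and 0 changed sign among those called. The 740 include genes that were not called and stayed so. For TLS against control in liver, the call was kept in 27 alternatives and lost in 1 for Mgst3. It was kept in 21 and lost in 7 for Ugt2b38, 18 and 10 for Gstm2, 15 and 13 for Ugt2b37 and 13 and 15 for Gstt1. The cause of these changes was not tested. A prior count of 0.5 in place of 2 moved mean log2 CPM in TLS livers from 4.59 to 4.58 for Mgst3 and from 2.56 to 2.48 for Ugt2b38. In a simulation without sex differences, a 2-fold change was called for 49.5% of 200 genes in liver, 81.5% in kidney, 58% in WAT and 89% in cortex.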
